A study of Mus musculus with 12 samples.

Results

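The cytosolic ribosomal proteins are the protein components of the ribosome that translates messages outside the mitochondria. They were taken as the rows of the deposited table whose gene symbol is Rpl or Rps followed by a number, or by p and a number, with at most one closing letter a, x or l, together with Rpsa, and with every symbol ending in -ps left out. The rule used names alone and gave 83 of 55291 genes, 51 of the large subunit and 32 of the small subunit. GENCODE annotates 80 of them as protein-coding genes, Rpl6l and Rpl32l as processed pseudogenes and Rps4l as a transcribed processed pseudogene. The genes lay on 19 chromosomes of the GRCm38 mouse genome. For the tests a gene had to reach 10 normalized counts in 5 or more embryos, which 82 of the 83 did, all but Rpl32l, and 78 had a mean of at least 1000.

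Transcripts were measured by RNA sequencing in single untreated wild-type C57BL/6J mouse embryos of embryonic day 7, 5 female and 7 male, from 7 litters. All 12 animals shared strain, genotype, age and the absence of treatment, and the groups differed by fetal sex. The design addresses sex differences in expression at gastrulation, in a series on the craniofacial malformations that alcohol causes at that stage. Each embryo was 1 library, so the spread between libraries includes that between animals.

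In units of 1000000 fragments the libraries held between 83.0 and 114.4, estimated from the value that 1 fragment takes in the table. The epiblast marker Pou5f1 was between 29640 and 56685 normalized counts and the primitive streak gene T between 4344 and 14153. The 6 decidual markers, of maternal tissue, summed to 7766 to 28085 in females and 12170 to 49301 in males, and all 6 were detected. The 6 trophoblast giant cell markers summed to 83397 to 110763 in females and 91258 to 171856 in males, with Ctsq at 0 in every embryo. Most of that sum came from Krt8 and Krt18, with means of 46423.9 and 45466.5 over all embryos. Prl3d1, another of these markers, varied far more, from 1336 to 15735 in females and from 5620 to 54012 in males. The sum therefore does not show how even the giant cell content was between embryos. In whole embryos, fewer cells of a type and less RNA per cell cannot be told apart.

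A ribosome joins a small subunit, which decodes the message, to a large subunit, which forms the peptide bonds, and nearly every ribosomal protein is needed in one copy per ribosome. Their messages are among the most abundant of growing cells. Most carry a 5′ terminal oligopyrimidine tract (5′ TOP), a run of C and U at the cap through which mTOR and the binding protein Larp1 set their translation. At gastrulation the epiblast divides fast, and loss of ribosomal proteins in mice leads to embryonic death or to defects of specific tissues.

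The 5′ TOP lies at the start of the message, so a few start sites are shown before the levels. Each line below gives 28 bases of the GRCm38.p6 genome around a start site of RefSeq, 5′ to 3′ on the strand of the gene, with the longest run of C and T near the annotated start in capitals. The windows began 20 bases before the annotated start for Rpl4, Rpl5, Rps27l, Rpl39 and Rpl10l and 2 bases after it for Rpl11. A run in capitals need not lie at the cap and is not shown to be a 5′ TOP. Rpl4 and Rps10 stand for genes with a long run, Rpl5 and Rpl11 are proteins that bind Mdm2, and Rps27 with Rps27l, Rpl39 with Rpl39l and Rpl10 with Rpl10l are paralogue pairs described further on.
Rpl4: agTCTTTCCTTTTCCTgtgggagcagcc
Rps10: cgcgcacgCCCCTTCCTTTCCagcctcc
Rpl5: CTCTTTCTCacgtcgcttgcgtgctggt
Rpl11: ggggccggaagTCTCCCTCTCTCTTCCT
Rps27: tccgctttcgCTCCTTTCCggcggtgac
Rps27l: cctctccaCTCCTCCCCgccgcctctat
Rpl39: CCCCCCCTaagctccgcctctagcgact
Rpl39l: tagctcccaggCCTTTCCggatttccgg
Rpl10: ggaagataggccgCCTatataaggcgtg
Rpl10l: agaaatttggCCTCCattttgcggctgg
These windows lie at chr9:64173367-64173394 (+) for Rpl4, chr17:27635228-27635255 (-) for Rps10, chr5:107900508-107900535 (+) for Rpl5, chr4:136053364-136053391 (-) for Rpl11, chr3:90213633-90213660 (-) for Rps27, chr9:66946066-66946093 (+) for Rps27l, chrX:37085215-37085242 (-) for Rpl39, chr16:10170210-10170237 (+) for Rpl39l, chrX:74270812-74270839 (+) for Rpl10 and chr12:66284394-66284421 (-) for Rpl10l. The longest run had 14 bases in Rpl4, 13 in Rps10 and 17 in Rpl11, while in Rpl10, an abundant X-linked gene, it had 3.

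The RefSeq table held 73 start sites for 61 of the 83 genes. A run of at least 8 pyrimidines between 20 bases before and 30 bases after the annotated start was present in 35 of the 73, or 47.9%, and in 19.0% of the 32851 start sites of all genes. The letters CCGGAAG, which ETS-family factors bind, occurred on either strand of the 300 bases around the start in 35.6% of these sites and 8.86% of all sites. The letters AAGATGGC, bound by YY1, occurred in 9.59% and 2.75%. A match is a description of the letters and does not show binding, and the annotated start may differ from the start used in these embryos.

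Ribosomal protein transcripts made up between 5.14% and 6.03% of all normalized counts of an embryo. The share was 5.42% ± 0.269 (SD, n = 5) in females and 5.55% ± 0.324 (SD, n = 7) in males. Male 1, male 7 and female 2 had the highest shares, 6.03%, 5.91% and 5.88%, and male 6 the lowest, 5.14%, so the sexes overlapped. The large subunit genes held 3.21% ± 0.164 (SD, n = 12) of the counts and the small subunit genes 2.29% ± 0.135 (SD, n = 12). The 319 processed copies with -ps symbols together had 0.0576% ± 0.00153 (SD, n = 12) of the counts of the 83 genes.

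Per kilobase of transcript, the scale on which genes of different length can be compared, the 78 genes with a mean of at least 1000 had a median level of 83661 normalized counts per kilobase, against 439 over the 16160 tested genes with a length. Of the 100 genes with the highest level per kilobase, 29 were ribosomal proteins, and 77 of the 82 lay above the 90th percentile. The median was 82813 for the large and 86529 for the small subunit. The highest level among the 78 was 50.8 times the lowest, although the proteins are needed in near equal numbers. Rplp0, the base of the ribosomal stalk, led with 380345 ± 20933 per kilobase (SD, n = 12). High levels were also found for Rps14 at 253534 ± 20299, Rpl13 at 209776 ± 10902 and Rpl41, the shortest ribosomal protein, at 175238 ± 12807. The lowest of the 78 were Rpl22 at 7482 ± 938, Rps20 at 9909 ± 1145, Rpl27a at 14307 ± 1315 and Rpl10a at 19563 ± 3069 per kilobase.

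**Figure D1:**
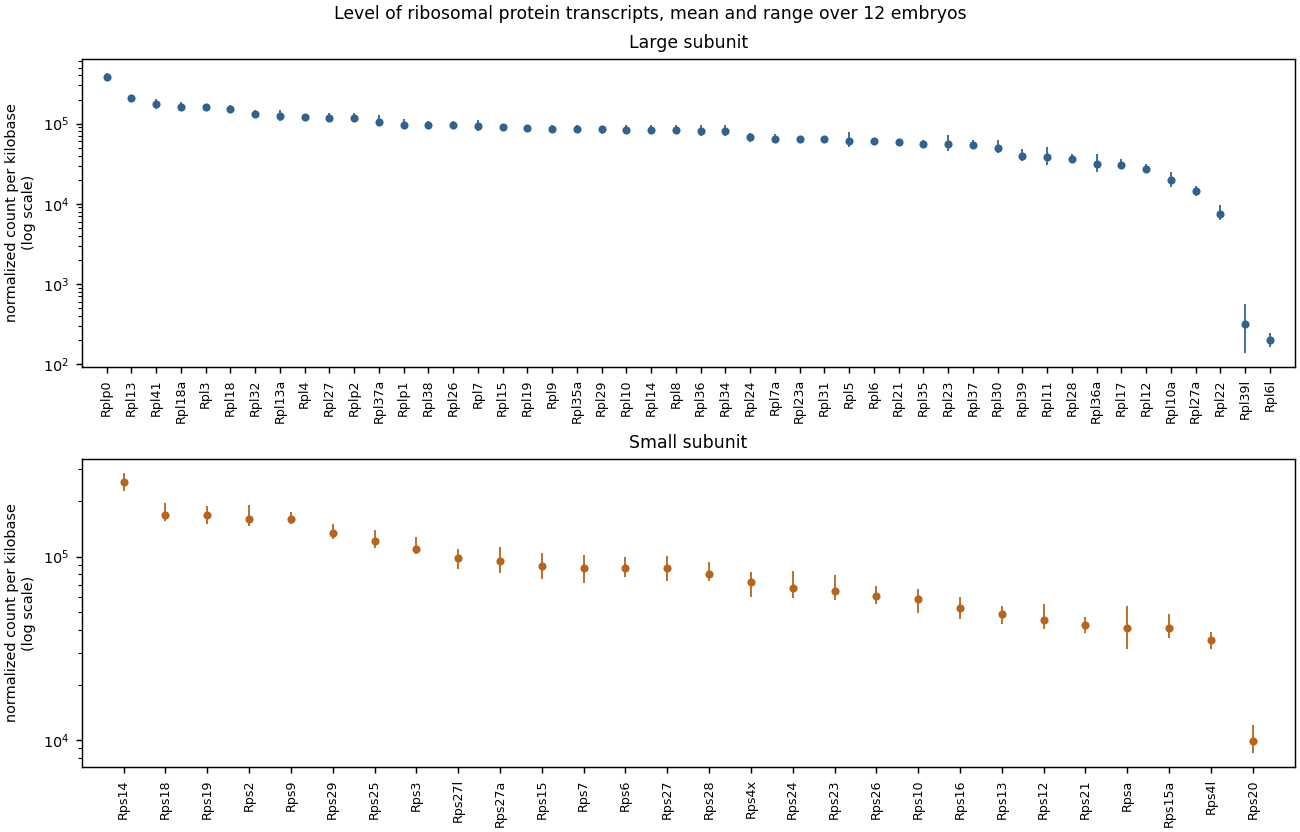
Level of the genes reported here in normalized counts per kilobase of transcript on a log scale, with points for the mean and bars for the range over 12 embryos, large subunit above and small subunit below. Rplp0 leads at 380345 and Rpl22 is the lowest of the abundant genes at 7482. Rpl39l and Rpl6l are under 1000, and Rpl3l, Rpl10l and Rpl32l are not drawn because they were at 0 in at least 1 embryo.

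Neighbours in the order lay close together beside the spread between embryos. Of the 77 pairs of neighbours in the order, 76 had ranges over the 12 embryos that overlapped. Ranges do not compare 2 genes within the same embryo, so the overlap does not show how fixed the order was. The order rested on the length used. Rps20 has 1 annotated coding transcript, of 3706 bases, for a coding sequence of 357 bases. Its level per kilobase of coding sequence was 102865, rank 54. Rpl41, whose coding sequence has 75 bases, ranked first by coding length with 1230167 per kilobase. Rplp0 and Rps14 held ranks 2 and 4 on that scale.

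The ribosomal stalk recruits the elongation factors and consists of Rplp0 with dimers of the acidic proteins Rplp1 and Rplp2. Rplp1 had 97623 ± 7985 and Rplp2 117680 ± 7751 normalized counts per kilobase (SD, n = 12), and neither range over the embryos overlapped that of Rplp0. In females, Rplp0 was at 322427, 365851, 312936, 325000 and 319670 normalized counts in replicates 1 to 5, and in males its lowest, median and highest values were 293367, 320874 and 349129. Female 2 had the highest value and male 6 the lowest, and the sexes overlapped. Across the 12 embryos Rplp1 and Rplp2 moved together (Pearson r = 0.89), and r was 0.82 between Rplp0 and Rplp1 and 0.69 between Rplp0 and Rplp2. Wdr89 shares 50-base stretches with Rplp2 and had 9.03% of its normalized count, so counts may have been split between these genes.

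Some ribosomal protein genes have a second gene related in sequence, and 8 such pairs were compared. The share of the second gene was computed per kilobase of both. Rpl3l, known from skeletal and cardiac muscle, and the autosomal retrogenes Rpl10l and Rpl39l, known from the male germ line, were close to absent. Rpl3l was listed at 0 in 6 of the 12 embryos and reached at most 22.2 normalized counts, against a mean of 130410 for Rpl3. Rpl10l was between 0 and 132 counts and held 0.0471% of its pair with Rpl10, which is X-linked. Rpl39l was found in every embryo, at 198, 172, 198, 265 and 374 in females 1 to 5 and at 93.8, 171 and 308 (lowest, median, highest) in males. It held 0.810% ± 0.322 (SD, n = 12) of its pair with the X-linked Rpl39, and the sexes overlapped.

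In the other 5 pairs the second gene was abundant. Rps27l, which p53 induces and which binds Mdm2, held 53.5% ± 0.899 (SD, n = 12) of its pair with Rps27 per kilobase, from 51.3% in male 1 to 54.4% in male 5. Both genes moved together across embryos (r = 0.92). Rpl36al, on chromosome 12, held 48.1% ± 2.07 of its pair with the X-linked Rpl36a. It held 59.2% ± 2.01 of the counts of the pair and 54.2% by coding length. Which gene of this pair was higher therefore depended on the length used. Rpl7l1, a nucleolar relative of Rpl7 that aligned to it with 68.4% identity over 193 bases, held 22.7% ± 1.99. Rpl22l1, which in mice compensates for loss of Rpl22, held 82.4% ± 1.94, a share that depended on the annotated length of 2048 bases for Rpl22, since it was 55.3% ± 3.30 of the counts of the pair and 56.7% by coding length.

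Rps4l is a copy of the X-linked Rps4x on chromosome 6, between positions 148354656 and 148355598 on the plus strand of GRCm38, and GENCODE calls it a transcribed processed pseudogene. It aligned to Rps4x with 79.7% identity, and none of its 50-base stretches occurred in Rps4x, while 14.9% occurred in Rps4l-ps. Whether its level comes from its own transcript or from fragments assigned to it was not tested. Its mean was 30575 ± 2344 normalized counts beside 70538 ± 6048 for Rps4x (SD, n = 12), which gave it 32.9% ± 2.66 of the pair per kilobase. In females 1 to 5 it was at 32448, 31983, 32385, 33643 and 31686, and in males its lowest, median and highest values were 27292, 28193 and 33208. Of the males only male 1 lay within the range of the females, and the other 6 lay below it. Rps4l did not move with Rps4x across embryos (r = -0.08).

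The share of the second gene was compared between the sexes in all 8 pairs with a two-sided exact permutation test over every way to draw 5 of the 12 embryos, where the smallest p is 0.00126. No pair passed after adjustment over the 8. Rpl36al held 49.4% ± 1.25 in females and 47.1% ± 2.05 in males (exact permutation p = 0.0518, adjusted p = 0.227). Rps4l held 34.5% ± 1.49 in females and 31.7% ± 2.72 in males (exact permutation p = 0.0568, adjusted p = 0.227). Male 5 had the highest Rps4l share of all embryos, 37.1%, with the lowest Rps4x count, 58692. With 1 embryo left out the difference ran from 2.31 to 3.80 percentage points. It was 3.80 without male 5 and passed the threshold after adjustment. Leaving out the male with the highest share widens the difference in itself, so no conclusion is drawn from it.

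**Figure D2:**
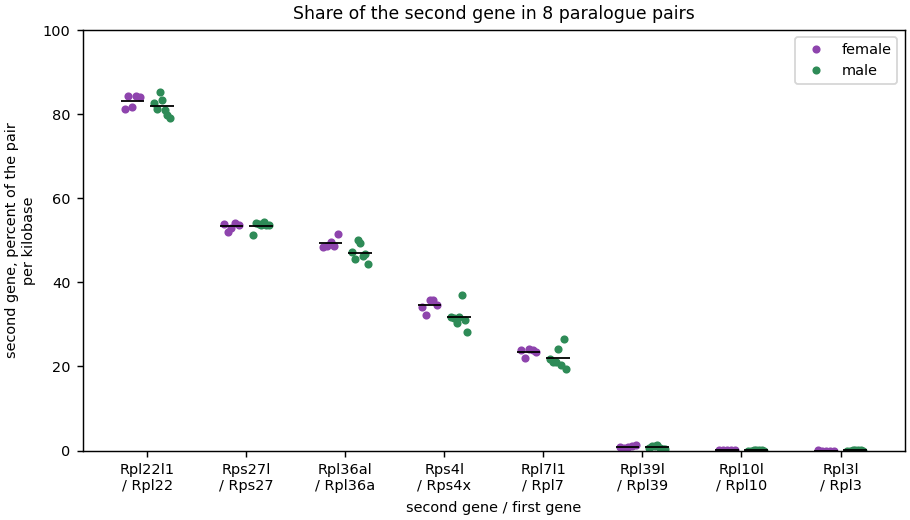
Share of the second gene in each of 8 paralogue pairs, as percent of the sum of both genes per kilobase, in 5 female (left) and 7 male (right) embryos, with black lines for the mean. Rpl22l1 is at 82.4%, Rps27l at 53.5%, Rpl36al at 48.1%, Rps4l at 32.9%, Rpl7l1 at 22.7%, and Rpl39l, Rpl10l and Rpl3l lie near 0.

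Ribosomal protein transcripts moved together from embryo to embryo. Over the 3003 pairs of the 78 genes, the median Pearson r of log2 levels across the 12 embryos was 0.72, and 96.7% of pairs had r above 0. Over the pairs of the other 8222 genes with a mean of at least 1000 the median was 0.00, with 50.1% above 0. The 78 mitochondrial ribosomal proteins of that level, which build the separate ribosome of the mitochondria, had a median of 0.14. Their mean level still followed that of the cytosolic genes over the 12 embryos (r = 0.84), with a median r per gene of 0.30. All points share library and scaling, so these values are a description. The median was 0.73 within the large and 0.71 within the small subunit, 0.78 among the 7 males and 0.83 among the 5 females. Without male 1, male 7 and female 2, the embryos with the highest levels, it was 0.44 over 9 embryos, beside 0.05 for the mitochondrial ribosomal proteins.

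The mean log2 level of the 78 genes, relative to the 12 embryos, was 0.17 in male 1, 0.12 in male 7 and 0.11 in female 2, and ran from 0.03 in male 2 down to -0.11 in male 6. Male 7 and female 5, which was at -0.07, came from litter 9 and lay far apart. Rpl12 and Rps28 followed the mean of the other genes closely (r = 0.97 and 0.96), while Rps4l (0.14), Rpl5 (0.38) and Rpl29 (0.46) followed it least. The closest pairs were Rplp0 with Rps15 (r = 0.98) and Rplp2 with Rps28 (r = 0.98).

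The embryos differed by small amounts. The SD of log2 level over the 12 embryos had a median of 0.10 over the 78 genes, the same as the 0.10 over 1700 other genes in the same range of mean counts. It was smallest in Rpl4 (0.05), Rpl19 (0.06), Rpl15 and Rpl3 (each 0.07). Rpl4, which lines the exit tunnel of the large subunit, was between 174770 and 193322 normalized counts. Large SDs among the 78 genes were those of Rpl36a and Rpl11 (0.23 each), Rpl10a (0.22) and Rpsa, the laminin receptor precursor (0.22). The scarce Rpl10l and Rpl3l had SDs of 2.67 and 2.08, at counts near 0 where 1 fragment moves the log value.

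A first common axis held 61.5% of the variance of the 78 genes and a second held 25.4%. Rpl5, Rpl36a and Rpl11 lay towards one end of the second axis and Rps7 and Rps10 at the other. Rpl36a, of the large subunit, was at 14980, 13967, 13444, 13068 and 11928 normalized counts in females 1 to 5, and its lowest, median and highest values in males were 12039, 16288 and 20074. Male 7 was highest and female 5 lowest, and the sexes overlapped. Rpl36a moved with Rpl5 (r = 0.91) and Rpl11 (r = 0.86), and its r with Rps7 was -0.27.

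These genes stood out after their values were seen, and they carry no test as a group. Male 6, where the mean of all ribosomal proteins was lowest, had Rpl36a at 16027 and Rpl11 at 31585, above all 5 females in both. Female 2, where the mean was high, had Rpl36a at 13967. Rpl36a shares 85.5% of its 50-base stretches with other genes, so its counts could have been split. Genes sharing at least 20% of these stretches had 0.422% of the count of Rpl36a, and adding them left its SD at 0.23. Their counts came from the same assignment of fragments, so they do not show how many were split. The 6 streak and mesoderm markers had, as a list, r = -0.61 with the second axis. Their member T was the other way, with r = 0.50, and was 14153 in male 7, 9486 in male 2, 8920 in male 5 and 8336 in male 4. T was within its female range of 4344 to 6228 in male 1, male 3 and male 6, and male 6 had the highest score on the axis. Visceral endoderm markers, 10 of 10 of them tested, had r = -0.68 with that axis. All 10 were higher in females, 9 at an unadjusted limma p below 0.05, beside 5.13% of all genes. Giant cell markers had r = 0.39, and 4 of the 5 tested were lower in females at that p, beside 5.64%. In both lists 0 passed after adjustment. Other genes with transcripts over 3000 bases had r = 0.53 with the axis and mitochondrial ribosomal proteins r = -0.56. The part of tissue make-up, stage, sex or transcript length in the second axis was not tested.

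**Figure D3:**
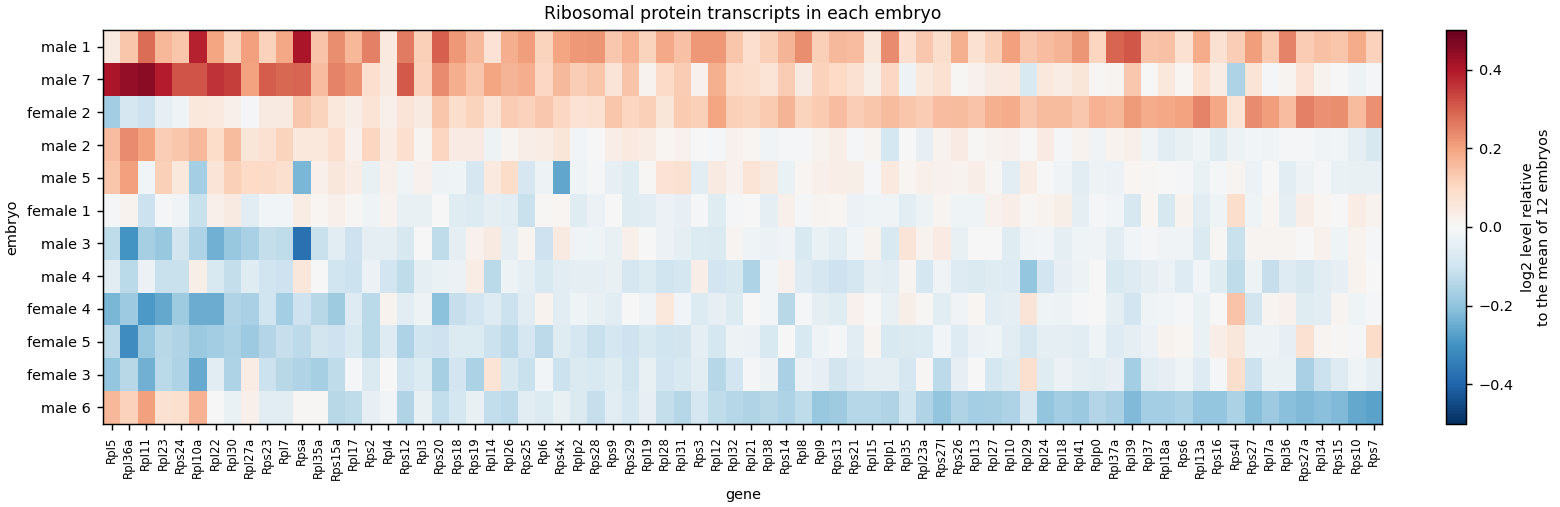
Log2 level of 74 genes (columns, ordered by the second common axis) in 12 embryos (rows, ordered by mean level), relative to the mean of the 12 embryos, red for higher and blue for lower. Male 1, male 7 and female 2 are red in nearly all columns, while the genes at the left, such as Rpl5, Rpl36a and Rpl11, are red in male 6 and blue in female 2.

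Between the sexes no ribosomal protein passed the threshold. By limma on log2(normalized count + 1), with Benjamini-Hochberg adjustment over 16455 genes, 0 of the 82 tested ribosomal proteins had an adjusted p below 0.05, beside 7 of all genes tested (0.0425%). At an unadjusted p below 0.05, 7 of the 82 were lower in females, beside 5.64% of all genes, and 1 was higher, beside 5.13%. The authors' deposited table gives an adjusted p below 0.05 for 0 of the 82, beside 1.14% of all genes with a value there. For 0 of the 82 did the ranges of the sexes fail to overlap, beside 0.772% of all genes. The median log2 difference, female minus male, was -0.01 over the 82 and -0.00 over all genes tested, and 31 of the 82 were above 0, beside 49.8% of all genes. That count was 14 without female 2, 18 with litter as a block and 42 without male 1 or without male 7.

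The smallest adjusted p belonged to Rpl11, which carries 5S RNA into the large subunit together with Rpl5. Rpl11 was at 25440, 25542, 23178, 22481 and 24054 normalized counts in females 1 to 5, and its lowest, median and highest values in males were 24463, 31494 and 37432. Only male 3 lay within the range of the females. The log2 difference was -0.32 ± 0.09 (SE; limma adjusted p = 0.256). The authors' deposited table gives -0.18 with an adjusted p of 0.0528. That fold change may be shrunken towards 0, since its SE is 0.11 while its unadjusted DESeq2 p is 0.000643. The sizes of the deposited and limma differences are therefore not compared.

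Rpl5 was at 86146, 76624, 75665, 73924 and 78926 in females and at 79179, 95271 and 114676 (lowest, median, highest) in males. Its log2 difference was -0.25 ± 0.08 (SE; limma adjusted p = 0.277), and male 3 and male 4 lay within the range of the females. Rps4l, the one gene higher in females at an unadjusted p below 0.05, differed by 0.15 ± 0.05 (SE; limma adjusted p = 0.321). Other genes lower in females at that level were Rps24, Rpl10a, Rpl23 and Rpl36a, with differences from -0.18 to -0.25 and adjusted p from 0.366 to 0.435 by limma.

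Litters 3 and 6 held 1 female and 2 males each and litter 9 held 1 of each sex. Within them the median log2 difference of the 82 was 0.00, -0.01 and -0.13. Rpl11 was lower in the female of each, with log2 differences of -0.13, -0.34 and -0.64. For Rpl5 the differences were -0.02, -0.34 and -0.54, so it hardly differed in litter 3. Rps4l was higher in the female of each, with differences of 0.16, 0.16 and 0.21. With litter as a term in limma, the difference was -0.34 ± 0.11 for Rpl11, -0.28 ± 0.10 for Rpl5 and 0.17 ± 0.06 for Rps4l (SE). The limma adjusted p was 0.377 for each.

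**Figure D4:**
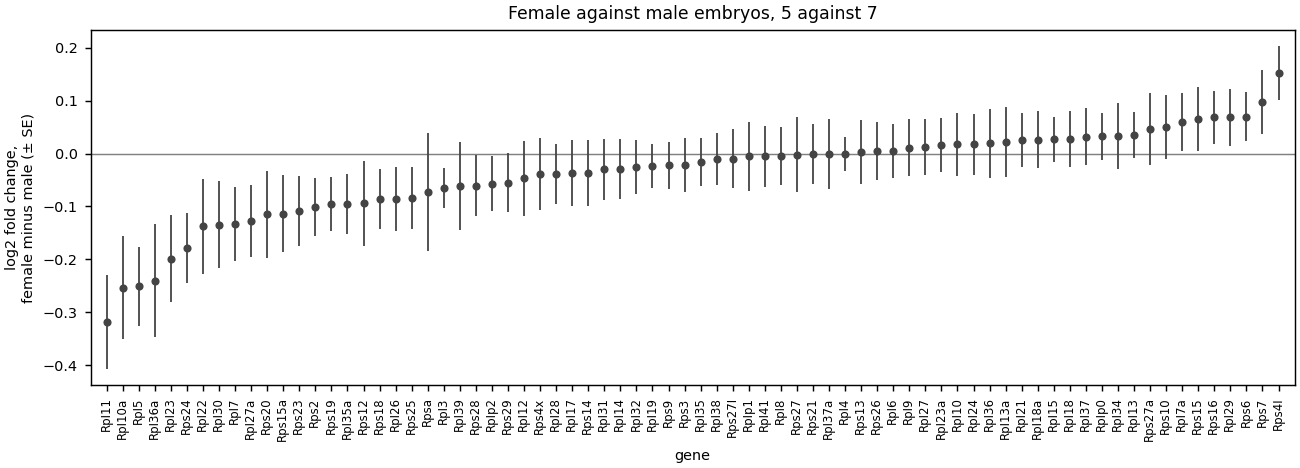
Log2 difference, female minus male, of 74 ribosomal proteins with a mean of at least 1000, as points with bars of 1 SE from limma, in order of size. The values run from -0.32 in Rpl11 to 0.15 in Rps4l, and 0 of them passed an adjusted p of 0.05.

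Of the 4 X-linked genes 0 passed the threshold between the sexes, and the values of the sexes overlapped in each. Rps4x was at 70690, 75495, 65242, 67580 and 67392 normalized counts in females, and its lowest, median and highest values in males were 58692, 72594 and 80545. Rpl10, needed for the joining of the subunits, differed by 0.02 ± 0.06 (SE) and Rpl39, of the exit tunnel, by -0.06 ± 0.08 (SE). Rpl36a had the largest difference of the 4, -0.24 ± 0.11 (SE; limma adjusted p = 0.435). The sign of Rpl10 changed under 3 of 22 alternatives and that of the other genes under 0.

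Of the 9 genes whose loss of 1 copy causes Diamond-Blackfan anaemia in people, 0 passed the threshold. Of the 9, 3 were above 0 and 6 below, beside 49.8% of all genes above 0. The sign of Rps26 changed under 7 of 22 alternatives. Rpl11, Rpl5 and Rps24 were lower in females at an unadjusted limma p below 0.05, beside 5.64% of all genes. Rpl35a lay at -0.09, Rps19 at -0.10 and Rps7 at 0.10. Rps19, the first gene found mutated in that anaemia, was at 102533, 116155, 96400, 100531 and 102350 normalized counts in females and at 101307, 110357 and 120305 (lowest, median, highest) in males. The sexes overlapped in Rps19, with a difference of -0.10 ± 0.05 (SE; limma adjusted p = 0.528).

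Mutations of 7 of the genes alter pigment, skeleton or patterning in mice. Rpl38, mutated in tail-short mice with axial skeletal defects, had 97544 ± 5299 normalized counts per kilobase (SD, n = 12) and a log2 difference between the sexes of -0.01 ± 0.05 (SE). Rpl24, mutated in belly spot and tail mice, differed by 0.02 ± 0.06 (SE). Rpl27a, mutated in sooty foot ataxia, differed by -0.13 ± 0.07 (SE). Rpl10a differed by -0.25 ± 0.10 (SE; limma adjusted p = 0.370), and 0 of the 7 passed the threshold.

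The 6 proteins known to bind and restrain Mdm2, the ubiquitin ligase of p53, gave 0 calls between the sexes. Rpl11, Rpl5 and Rpl23 had differences of -0.32, -0.25 and -0.20 and an unadjusted limma p below 0.05. Over all genes, 5.64% were lower in females at that p. Rpl11, Rpl5 and Rps7 are also among the anaemia genes, so the lists are not separate observations. Rps27 and Rps27l lay at -0.00 and -0.01 with a sign that changed under 6 and 4 of 22 alternatives. Rps7 was at 0.10 ± 0.06 (SE). Rps7 was at 78050, 90165, 74564, 76794 and 82087 normalized counts in females, and its lowest, median and highest values in males were 63971, 76682 and 83483. Rpl5 and Rps7 moved in opposite directions across embryos (r = -0.40).

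Some genes outside the naming rule also belong to the cytosolic ribosome or are named after it. Rack1, which sits on the small subunit head, had r = 0.88 with the mean level of the 78 genes over the 12 embryos, Rps3a1 r = 0.92, and Fau, made as a fusion with a ubiquitin-like protein, r = 0.82. Of the 8 genes of that list 0 passed between the sexes. The lowest r of the list were those of Rps27rt, at -0.13, and the nucleolar Rpl7l1, at 0.12.

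The 14 other translation genes whose messages carry a 5′ TOP had a median r of 0.71 with the ribosomal protein mean, from -0.41 for Hnrnpa1 to 0.89 for Eef1b2. Eef1a1, the factor that delivers transfer RNA to the ribosome, had r = 0.86 and Npm1 r = 0.78. The 25 ribosome biogenesis genes had a median r of -0.29, and their most abundant members Ncl, Nop56 and Nhp2 had r of -0.21, -0.67 and 0.63. The 11 genes of mTOR and Myc control had a median of -0.13, with Eif4ebp1, a repressor of cap-dependent translation, at 0.76 and Mycn at -0.38. In these lists 0 of 14, 0 of 25 and 0 of 11 genes passed the threshold between the sexes.

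Among the other genes with a mean of at least 1000, those most like the ribosomal protein mean over the 12 embryos were Pfdn5, a prefoldin subunit (r = 0.93), CT010467.1 (0.92), Cox5b (0.92) and Atp5b (0.92), both of the respiratory chain or ATP synthase, and Rps3a1 (0.92). The most opposite were Rps6ka2, a kinase of the RSK family (r = -0.96), Pcgf6 (-0.92), Mia2 (-0.92), Ston2 (-0.91) and Ubqln1 (-0.89). Length went with likeness: the median r was 0.20 over 587 other genes with transcripts up to 700 bases and -0.19 over 2429 with transcripts over 3000 bases. The mean level of the latter had r = -0.92 with the ribosomal protein mean, and ran from -0.07 in male 1 to 0.06 in male 6. The 9 tested mitochondrially encoded genes had r = 0.86, and library depth had r = 0.16. The part of transcript length or RNA quality in the movement of the ribosomal proteins was not tested.

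**Figure D5:**
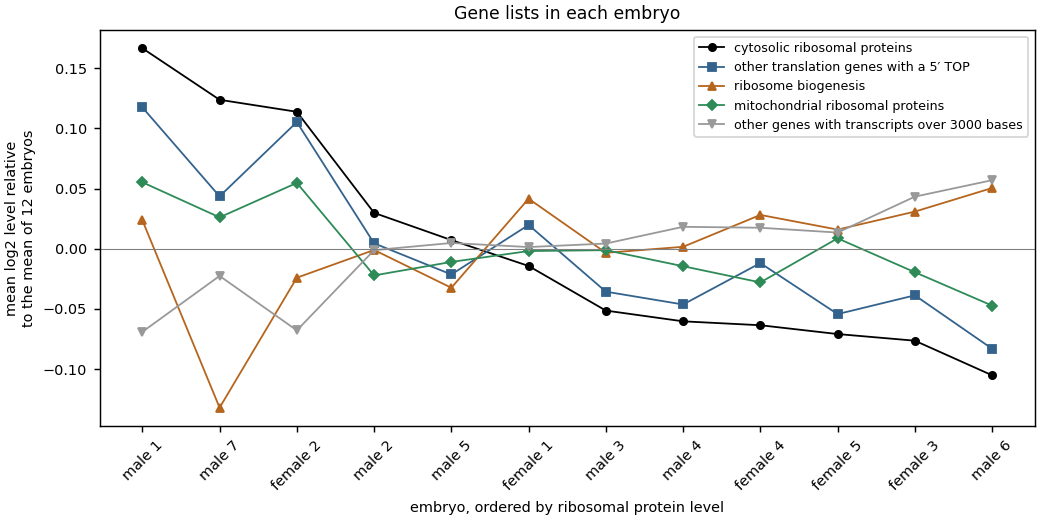
Mean log2 level of 5 gene lists in each embryo relative to the mean of the 12, with embryos in order of the ribosomal protein level. Ribosomal proteins run from 0.17 in male 1 to -0.11 in male 6, other translation genes with a 5′ TOP run beside them, and genes with transcripts over 3000 bases run the opposite way, from -0.07 to 0.06. Mitochondrial ribosomal proteins go the same way as the cytosolic ones over a smaller range, from 0.06 in male 1 to -0.05 in male 6.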

How the data were processed

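Per the submitters' processing notes, the mm10 build was used with DESeq2 1.34.0, Salmon 1.5.2, STAR 2.7.7a and cutadapt 4.1, and their settings are not given in the sources used here. The deposited table holds log2-scale, variance-stabilized values per embryo, a mean signal per gene on the scale of normalized counts, and the authors' log2 fold changes with p-values. The log2-scale values were inverted in closed form to normalized counts, which gave the deposited mean for all 83 genes within a relative tolerance of 1e-06. Whole reads could not be recovered, since 85.3% to 91.2% of low values lay within 0.1 of a whole multiple, so limma 3.58.1 in R 4.3.3 was fitted to all 12 embryos on log2 of the normalized count plus 1, with a term for sex alone and a mean-variance trend, for genes reaching 10 in 5 or more embryos. The threshold was a Benjamini-Hochberg adjusted p of 0.05. Fold changes on this scale understate those of low genes. The fit was tested on simulated data.

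Lengths were medians over GENCODE M21 coding transcripts, and annotation and sequences were GRCm38. Of 83 symbols, 22 had no RefSeq start site in the table used. Levels per kilobase assume even coverage, which full-length amplification of very low RNA input may not give. Named genes were those of the lists of paralogues, stalk, X-linked, anaemia, patterning and Mdm2-binding genes, the 5 highest and 5 lowest per length, the 5 largest and 5 smallest SDs, the 3 highest and 3 lowest differences and any called gene, and Rpl29, Rpsa, Rpl12, Rps15 and Rps28 were named after their values were seen. The results of some genes are not reported here. The members and lists were chosen with earlier results of these data known. Alternatives covered pseudocount, filter, scale, blocks, trend, transcript length and each embryo left out.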

Additional observations from a re-analysis of the deposited data

Results flagged for a closer look

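In 17 of 100 groups of 5 or 7 embryos that were looked at, 1 embryo stood apart from the rest of its group by Dixon's ratio. Chance flags about 1 in 20 independent groups. These groups share embryos and hold genes that move together, so the count cannot be set against that rate. Of the 17 flags, 8 were normalized counts that were highest in female 2 among the females: Rpl13 at 180275, Rpl19 at 71228, Rpl38 at 39238, Rpl41 at 101006, Rplp0 at 365851, Rplp1 at 54240, Rps26 at 46490 and Rps27 at 40286. In the same embryo the share of all counts in ribosomal proteins was 5.88%, against 5.24% to 5.40% in the other females, and the Rpl7l1 share of its pair was lowest, 22.0% against 23.5% to 24.1%. Rpl4 was lowest in female 5, at 178858 against 187258 to 189987. Rps27l was lowest in male 6, at 42854 against 48606 to 52263, while its share of the pair with Rps27 was lowest in male 1, 51.3% against 53.6% to 54.4%. The Rps4l share of its pair was highest in male 5, 37.1% against 28.1% to 31.7%. Scarce genes gave the rest: Rpl3l was 16.7 in female 1 against at most 1.31 in the other females, its share there was 0.0104%, and Rpl32l was 1.66 in male 3 and 0 in every other male.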

How the results depend on the processing

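No ribosomal protein passed between the sexes under any of the 22 alternatives. The count over all genes, 7, was 4 with litter as a block, 4 with the replicate block, 9 on the deposited log-scale values and 5 to 9 with 1 embryo left out. Same-numbered embryos came from different litters and their deviations had r from -0.07 to 0.01, so the numbers do not pair them. The median log2 difference of the members was -0.05 to 0.01 with 1 embryo left out, -0.05 with litter and -0.03 with the replicate block, and the 7 genes lower in females at an unadjusted p below 0.05 became 14 without female 2, 12 without male 3 and 4 without female 3 or female 4. The median level per length was 65292 by longest transcript and 132797 by coding length. The Rps4l share of its pair differed by 2.31 to 3.80 percentage points with 1 embryo left out, and 3.80 without male 5, the male with the highest share, passed the threshold. The median r among members was 0.66 to 0.74 with 1 embryo left out and 0.44 without male 1, male 7 and female 2, an alternative chosen after seeing the data. Fragments of near-identical copies could be split between genes. Genes sharing at least 20% of a member's 50-base stretches had over 1% of its count for 3 of 78 members. Those counts came from the same assignment of fragments, so they do not show how many were assigned to the wrong gene.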
